A study of Mus musculus with 13 samples.

Results

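The 140 Rorb/Whrn spots were the positions on a pair of mouse brain sections where 4 genes, Rorb, Whrn, Pamr1 and Zmat4, together took the largest share of the captured transcripts. In each of the 2 sections, called S4 and S8 after the suffix of their columns, the 70 spots with the highest summed CPM (the count over the spot's total, times 1000000) of these genes were taken. Only spots with a total of at least 2000 counts were ranked, 1963 of 1973 spots in all, so that 1823 other spots remained for comparison, 947 in S4 and 876 in S8. The spots came from Visium slides, arrays of capture positions that each read the RNA of a small region, which can hold several cells of different types or parts of one. Both sections are labelled wild type (WT) and brain, and were 10 µm cryosections of flash-frozen brains stained for the neuronal protein NeuN and for DNA with DAPI. No age, sex or treatment was given for them, and the 2 sections formed 1 group, with no treated or mutant group. The labels do not tie S4 or S8 to a sample number and do not say whether the sections came from 1 animal or 2. The p-values here thus rest on how the differences between sets of spots varied over these 2 sections only. That variation may be technical. The same series holds dissociated neurons of the retrosplenial cortex from 3 animals of the B6 strain, microdissected, dissociated and pooled across slices, which were used for levels only. The spots are called by their genes and are given no cell type name.

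Layer 4 of the neocortex is the main input layer for axons from the thalamus, and its granular excitatory neurons are densest in the primary sensory areas. RORB, a nuclear receptor of the retinoid-related orphan receptor family, is a classical marker of these neurons and takes part in their development, although some excitatory neurons of layer 5 express it too. The retrosplenial cortex lies at the midline and its granular part has a cytoarchitecture of its own, so a section through it also holds neighbouring neocortex. Whrn encodes whirlin, a PDZ-domain scaffold protein, Pamr1 a secreted peptidase-domain protein and Zmat4 a zinc-finger protein.

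The sections held 8436518 (S4) and 6389042 (S8) counts. The median total was 8781 counts in the Rorb/Whrn spots and 8234 in the other spots of S4, and 6649.5 and 6724.5 in S8. Of all spots, 162 array positions carried the same barcode in both libraries. That is the same array place in each library and not a shared cell. Of these positions, 1 was a Rorb/Whrn spot in both. Mitochondrially encoded genes took a median of 11% of the counts of the Rorb/Whrn spots and 10.8% of the other spots in S4, and 8.24% and 8.82% in S8. The transcript Gm42418, which overlaps ribosomal RNA sequence, took 1.93% and 2.35% in S4 and 7.10% and 7.92% in S8. The median level of Slc17a7, the vesicular glutamate transporter of cortical excitatory neurons, was 667 CPM in the Rorb/Whrn spots and 710.5 CPM in the other spots of S4, and 636 and 772 CPM in S8.

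The values that chose the spots rested on few transcripts and are given as a description. Summed over the 70 spots, Rorb stood at 219 CPM in S4, where the other spots had 32.4 CPM, and at 213 CPM in S8, where they had 31.4 CPM. Whrn stood at 80.9 CPM in S4, where the other spots had 12.1 CPM, and at 92.1 CPM in S8, where they had 15.7 CPM. Pamr1 stood at 167 CPM in S4, where the other spots had 26.2 CPM, and at 116 CPM in S8, where they had 18.9 CPM. Zmat4 stood at 184 CPM in S4, where the other spots had 33.4 CPM, and at 151 CPM in S8, where they had 26.6 CPM. A Rorb/Whrn spot held between 2 and 14 counts of the 4 genes in S4 and between 2 and 7 in S8, with medians of 5 and 4. All 4 genes were detected in 16 of the 70 spots of S4 and in 5 of the 70 of S8, and only 1 gene in 6 and 7 spots. The border fell in a smooth part of the score. The last spot taken and the first left out stood at 420.34 and 419.93 CPM in S4, with 5 and 3 counts, and at 424.93 and 422.12 CPM in S8, with 3 and 2 counts.

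**Figure D1:**
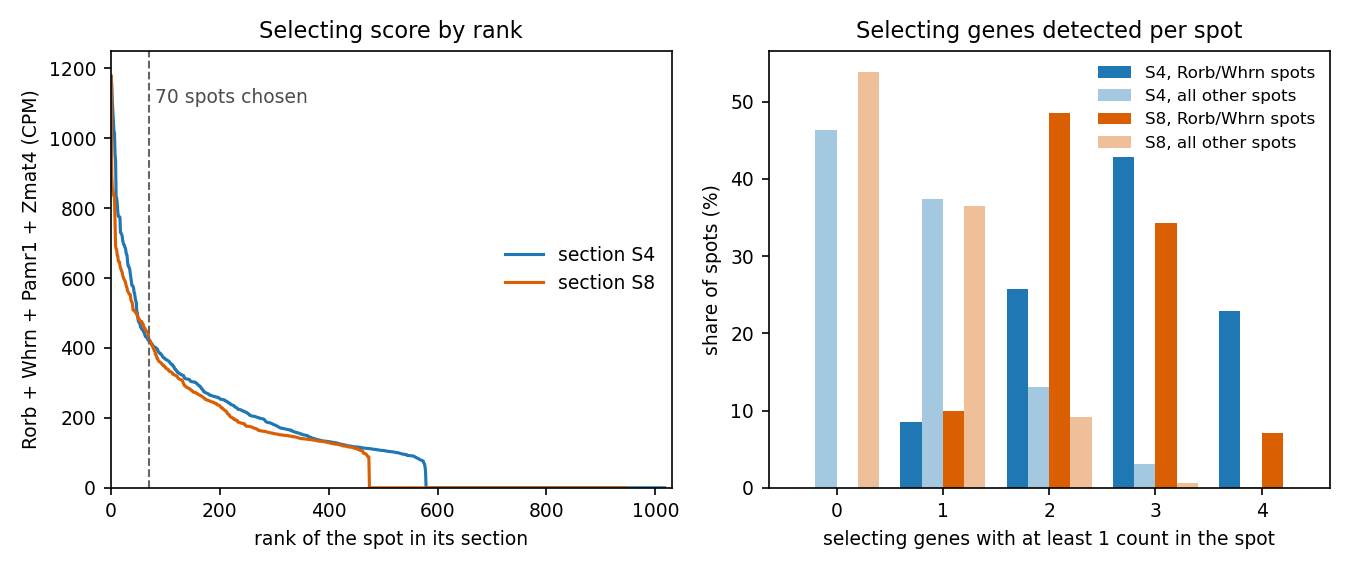
Left, summed CPM of the 4 selecting genes in every spot with at least 2000 counts, ordered by rank within its section, with the dashed line at rank 70. Right, share of spots in percent by the number of selecting genes with at least 1 count, for the Rorb/Whrn spots and all other spots of each section. The curves pass the dashed line without a step, where S4 stands at 420.34 CPM and S8 at 424.93 CPM.

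Against all other spots, the Rorb/Whrn spots had more of 7 of 14 tested genes of a layer 4 list, Rspo1 and Plcxd2 among them. That list was assembled with results of these data known, so its count is a description. The Rorb/Whrn spots also had more of 8 immediate early genes and of Nrep and Cdh6. They had less of the imprinted gene Nnat, of Rprm and Ccn2 of layers 6 and 6b and of the sodium channel gene Scn3b. The list of layers 2 and 3 was split, with Ccn3 and Wfs1 lower and Dkkl1 and Pou3f2 higher. Counts were summed per section and set and compared with edgeR's quasi-likelihood test with section as a block, and called genes are those with an adjusted p (Benjamini-Hochberg) under 0.05. Of 12188 genes tested, 353 were called (2.9%), 192 higher (1.58%) and 161 lower (1.32%) in the Rorb/Whrn spots, with the 4 selecting genes left out. Of the 353, 106 had a log2 fold change of at least 1 in size. The test had 1 residual degree of freedom. The number of calls differed between tests and designs. DESeq2 called 36 of the same genes in the same direction, and without section as a block edgeR called 4 (Nnat, Ccn3, Plcxd2 and Nrep). The cause of these shifts was not tested. In sums over spots, more cells of a type and more RNA per cell cannot be told apart.

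Rspo1, which encodes a secreted enhancer of Wnt signalling, had the largest fold change among the genes named as higher. Given here as the level in the Rorb/Whrn spots against that in the other spots of the same section, it stood at 40.5 against 5.74 CPM in S4 and 26.3 against 10.1 CPM in S8 (log2 fold change 2.15, SE 0.33, adjusted p = 3.39e-08). It had a count in 27.1% of the Rorb/Whrn spots of S4 and 17.1% of those of S8, against 4.12% and 6.16% of the other spots. Plcxd2, which encodes a protein with a phospholipase C domain, stood at 139.97 against 49.2 CPM in S4 and 123 against 56.8 CPM in S8 (log2 fold change 1.32, SE 0.16, adjusted p = 1.37e-12). Nrep, a gene linked to nerve regeneration, stood at 228 against 84.7 CPM in S4 and 186 against 86.7 CPM in S8 (log2 fold change 1.27, SE 0.13, adjusted p = 3.26e-18). A higher level in both sections was a condition for naming these genes. Plcxd2 had a count in 62.9% of the Rorb/Whrn spots of S4 and 48.6% of those of S8, against 28.9% and 28.3% of the other spots.

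Of the other genes named as higher, 3 encode proteins of the cell surface or secreted proteins. Cdh6, which encodes a cadherin of cell adhesion, stood at 45.5 against 18.5 CPM in S4 and 50.5 against 18 CPM in S8 (log2 fold change 1.37, SE 0.26, adjusted p = 3.53e-05). Dkkl1, which encodes a secreted protein related to the dickkopf family, stood at 75.9 against 32.8 CPM in S4 and 59.2 against 27.5 CPM in S8 (log2 fold change 1.16, SE 0.22, adjusted p = 2.07e-05). Ptgfrn, which encodes a membrane protein of the immunoglobulin superfamily, stood at 62.4 against 22.5 CPM in S4 and 35.1 against 16.9 CPM in S8 (log2 fold change 1.32, SE 0.25, adjusted p = 4.11e-05). The level of Ptgfrn in the Rorb/Whrn spots was larger in S4 than in S8. Cpne9, a copine that binds phospholipids in response to calcium, stood at 52.3 against 19.5 CPM in S4 and 50.5 against 20.7 CPM in S8, with a log2 fold change of 1.35 (adjusted p = 2.08e-05). Ovol2, a zinc-finger transcription factor, had a log2 fold change of 1.40 (adjusted p = 0.00211) and stood at 33.7 against 9.57 CPM in S4 and 21.9 against 12.1 CPM in S8, so its difference was larger in S4 than in S8. Kif13a, a kinesin motor, and Afap1l1, an actin-associated protein, had log2 fold changes of 1.24 (adjusted p = 0.0135) and 1.24 (S4 1.5, S8 0.66, adjusted p = 0.00175). Tmem268 and Prr16 had log2 fold changes of 1.46 (adjusted p = 0.00282) and 1.41 (S4 0.92, S8 1.99, adjusted p = 0.00256). Where the log2 ratio of CPM in a section was over 1.5 times larger or smaller than the fitted value of a called gene, the ratios of S4 and S8 follow it, as here for Afap1l1 and Prr16, unless the CPM themselves are given.

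Nnat, an imprinted gene for the membrane proteolipid neuronatin, had the largest fold change and the smallest adjusted p of the 8 genes named as lower. It stood at 35.4 against 245 CPM in S4 and 79.0 against 251 CPM in S8 (log2 fold change -2.19, SE 0.16, adjusted p = 1.60e-36). Of the 3 comparison sets described below, Nnat was lower only against the Foxp2/Gadd45a spots (log2 fold change -1.09, adjusted p = 0.00908). The Cux2/Lamp5 spots had 24.3 CPM in S4 and 74.3 CPM in S8 (log2 fold change 0.24, adjusted p = 0.884). The Tshz2/Slc17a6 spots had 65.5 and 77.9 CPM (log2 fold change -0.41, adjusted p = 0.627). Rgs14, a regulator of G-protein signalling known from hippocampal area CA2, stood at 6.75 against 40.6 CPM in S4 and 19.7 against 40.0 CPM in S8 (log2 fold change -1.71, SE 0.35, adjusted p = 0.000131). Scn3b, a beta subunit of voltage-gated sodium channels, stood at 32.0 against 93.1 CPM in S4 and 32.9 against 79.4 CPM in S8 (log2 fold change -1.44, SE 0.23, adjusted p = 1.53e-07), and its levels in the Rorb/Whrn spots were nearly alike in both sections. Ccn2, a secreted matrix protein that marks layer 6b, stood at 6.75 against 23.0 CPM in S4 and 11 against 30.0 CPM in S8 (log2 fold change -1.61, adjusted p = 0.00785). Myh7, a myosin heavy chain, had a log2 fold change of -2.13 (adjusted p = 4.45e-05) and rested on few counts in the Rorb/Whrn spots of S4, at 3.37 against 30.0 CPM in S4 and 13.2 against 37.4 CPM in S8. Rin1, a Ras effector, had a log2 fold change of -1.54 (S4 -1.94, S8 -0.95, adjusted p = 0.00153). Cort, the precursor of the interneuron peptide cortistatin, had one of -1.52 (S4 -2.25, S8 -0.90, adjusted p = 0.00969). Dcn, the proteoglycan decorin of the meninges and vessel walls, had one of -1.82 (S4 -2.16, S8 -1.17, adjusted p = 0.00219). DESeq2 called 4 of these 20 genes, Plcxd2, Nrep, Nnat and Scn3b, and gave no adjusted p for the other 16. Without its filter on mean counts, which was tried after seeing the data, DESeq2 called 3, Plcxd2, Nrep and Nnat, and the other 17 had adjusted p from 0.102 (Scn3b) and 0.104 (Rspo1) up to 0.9998 (Tmem268, Prr16, Ovol2, Afap1l1, Kif13a, Dcn, Ccn2, Rin1 and Cort).

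**Figure D2:**
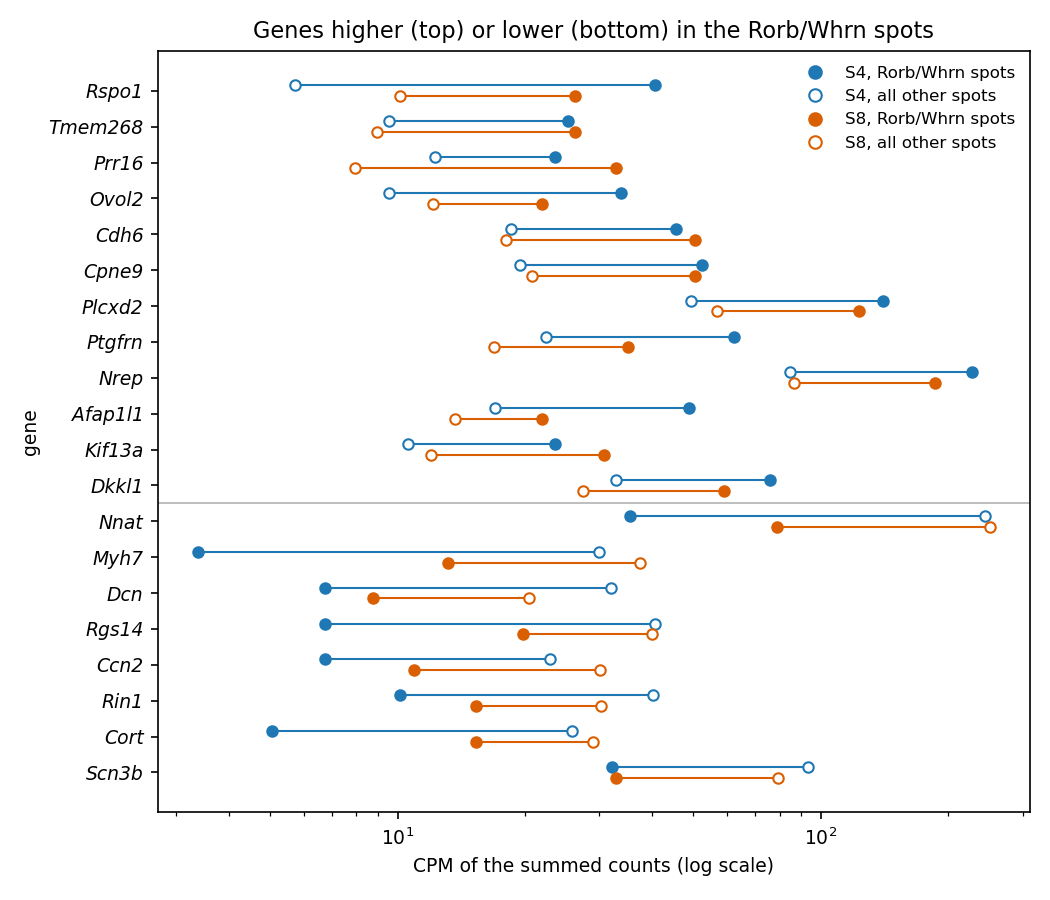
CPM of the summed counts (horizontal axis, log scale) of the 12 genes named as higher and the 8 named as lower, in the Rorb/Whrn spots (filled) and all other spots (open) of each section; the lines join the sets of 1 section. Each gene lies on the same side in both sections, which was a condition for naming it. The lines of Nnat run from 35.4 to 245 CPM in S4 and from 79.0 to 251 CPM in S8.

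The layer lists describe where these calls fell. For these and the further lists against all other spots, 1.58% of all genes tested were called higher and 1.32% lower. Of the layer 4 list, 7 of 14 tested genes were called higher and none lower, with a median log2 fold change of 0.72 beside -0.01 over all genes tested. Besides Rspo1 and Plcxd2 these were Scnn1a, Endou, Btbd3, Cux1 and Cux2. Endou rested on 7 counts in the Rorb/Whrn spots of S4 and 3 in those of S8 (log2 fold change 2.10, adjusted p = 0.0306). Scnn1a, a sodium channel subunit used as a genetic marker of layer 4, rested on few counts, at 8.43 against 2.42 CPM in S4 and 13.2 against 3.54 CPM in S8 (log2 fold change 1.82, adjusted p = 0.0491). Btbd3, which directs dendrite orientation in layer 4 neurons, stood at 221 against 131 CPM in S4 and 154 against 105 CPM in S8 (log2 fold change 0.66, SE 0.13, adjusted p = 8.66e-05). The homeobox gene Cux2 of upper-layer neurons stood at 59.0 against 35.2 CPM in S4 and 83.4 against 44.7 CPM in S8 (log2 fold change 0.81, adjusted p = 0.00611), and its relative Cux1 had a log2 fold change of 0.67 (S4 0.86, S8 0.40, adjusted p = 0.0235). Among the genes not called, Thsd7a had a log2 fold change of 0.78 (S4 1.32, S8 0.02, adjusted p = 0.0571), the netrin receptor gene Unc5d of 0.65 (S4 0.91, S8 0.31, adjusted p = 0.0656), Hsd11b1 of 0.57 (S4 0.80, S8 0.18, adjusted p = 0.279) and Pcdh20 of 0.44 (adjusted p = 0.631). DESeq2 called 1 of the 7, Plcxd2, with or without its filter, and with it gave no adjusted p for 10 of the 14. The list was assembled with results of these data known, so its count is a description.

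In the list of layers 6 and 6b, 2 of 12 tested genes were called lower, Ccn2 and Rprm, none was called higher, and the median log2 fold change was -1.09. Rprm, which encodes a cell-cycle inhibitor and marks layer 6, stood at 30.4 against 58.4 CPM in S4 and 37.3 against 83.3 CPM in S8 (log2 fold change -1.06, SE 0.24, adjusted p = 0.000789). Tbr1, a transcription factor of deep-layer neurons, had a log2 fold change of 0.02 (adjusted p = 0.981), so that list was not low throughout. The list of layers 2 and 3 was split. Ccn3 and Wfs1 were lower and Dkkl1 and the transcription factor gene Pou3f2 higher, 2 of 12 in each direction. Ccn3, a secreted matrix protein, stood at 75.9 against 232 CPM in S4 and 89.9 against 200.2 CPM in S8 (log2 fold change -1.42, SE 0.15, adjusted p = 1.49e-17). Of the layer 5 list, Crym and Bcl11b were lower and Tox higher, 3 of 14 in all. Crym, which encodes a thyroid hormone binding protein, stood at 67.5 against 174 CPM in S4 and 72.4 against 143 CPM in S8 (log2 fold change -1.21, SE 0.17, adjusted p = 2.33e-10). Of 8 retrosplenial list genes 1 was higher, Ddit4l, and 1 lower, Nnat. Trh, the precursor of thyrotropin-releasing hormone and a gene of other brain areas, had no count in the Rorb/Whrn spots of either section. It stood at 10.1 and 10.8 CPM in the other spots of S4 and S8, at least 1.99 and 1.64-fold higher against the floor of 3 counts per section.

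Immediate early genes are those whose transcription rises within minutes of neuronal activity. Of 14 tested, 8 were called higher and none lower, with a median log2 fold change of 0.61. Their summed level was 2214 against 1419 CPM in S4 and 3334 against 2174 CPM in S8, and S8 lay above S4 in both sets. Egr1, a zinc-finger transcription factor, stood at 616 against 300.2 CPM in S4 and 728 against 444 CPM in S8 (log2 fold change 0.86, SE 0.08, adjusted p = 8.67e-21). Nr4a1, an orphan nuclear receptor, stood at 285 against 168 CPM in S4 and 511 against 293 CPM in S8 (log2 fold change 0.77, SE 0.10, adjusted p = 3.05e-11). Arc, which regulates AMPA receptor endocytosis, stood at 245 against 143 CPM in S4 and 509 against 329 CPM in S8 (log2 fold change 0.68, SE 0.10, adjusted p = 2.83e-08). Fos, Dusp1, Ier2, Egr4 and Npas4 were the others called, with log2 fold changes of 0.65, 0.75, 0.71, 0.54 and 0.72. The uncalled members ranged from -0.01 (Fosl2) to 0.58 (Egr2, adjusted p = 0.294). DESeq2 called 4 of the 8, Egr1, Nr4a1, Arc and Dusp1.

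Genes of inhibitory neurons were called in both directions, 2 higher and 3 lower of 16, beside 1.58% and 1.32% over all genes tested. Pvalb, the calcium-binding protein of fast-spiking basket cells, stood at 256 against 167 CPM in S4 and 189 against 115 CPM in S8 (log2 fold change 0.64, SE 0.12, adjusted p = 3.55e-05). Vip, a peptide of another interneuron class, stood at 113 against 72.5 CPM in S4 and 98.7 against 54.3 CPM in S8 (log2 fold change 0.72, adjusted p = 0.00219). Sst, the somatostatin gene, was lower, at 287 against 355 CPM in S4 and 325 against 422 CPM in S8 (log2 fold change -0.35, adjusted p = 0.0196), as were Cort and Cck. The pan-inhibitory genes Gad1, Gad2 and Slc32a1 had log2 fold changes of 0.22, -0.11 and 0.61 and were not called (adjusted p = 0.421, 0.866 and 0.0569). The excitatory marker Slc17a7 was not called either, with a log2 fold change of -0.15 (adjusted p = 0.388). In the pan-neuronal list 2 of 12 genes were higher, the synaptic genes Snap25 and Nrgn, by 0.38 and 0.24 on the log2 scale.

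Few genes of other cells were called. None of 12 oligodendrocyte, 10 microglial or 13 mitochondrially encoded genes was called by edgeR, and 0 of each list had an unadjusted p under 0.05 or were called by DESeq2, which gave 4, 9 and 1 of them no adjusted p. The summed level of the 12 oligodendrocyte genes was 2661 against 2485 CPM in S4 and 2994 against 3052 CPM in S8. Of 12 astrocyte genes 1 was higher, the glutamate transporter gene Slc1a2, by 0.28 on the log2 scale (adjusted p = 0.000661). The 12 genes summed to 3516 against 3078 CPM in S4 and 3753 against 3117 CPM in S8, so both sections lay higher in the Rorb/Whrn spots. Of 11 meningeal genes, Dcn and Ptgds were lower, and the summed level of the list was 572 against 663 CPM in S4 and 434 against 671 CPM in S8. The haemoglobin genes Hbb-bs and Hba-a1 were called lower but went opposite ways in the sections. Hbb-bs stood at 907 against 759 CPM in S4 and 314 against 784 CPM in S8, and Hba-a1 at 341 against 280.1 CPM in S4 and 132 against 373 CPM in S8, so both calls rested on S8. Gm42418 had a log2 fold change of -0.17 (S4 -0.23, S8 -0.08, adjusted p = 1.27e-05). With Gm42418 and the mitochondrially encoded genes taken out before spots were chosen, all 20 genes named above were still called. The part of the astrocyte, meningeal and haemoglobin genes in the other results was not tested.

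Ion channel, receptor and adhesion genes were called singly within their lists, beside 1.58% higher and 1.32% lower over all genes tested. Of 40 potassium channel genes 5 were higher and none lower, with a median log2 fold change of 0.07. Kcnab3, an auxiliary beta subunit, stood at 82.6 against 28.7 CPM in S4 and 52.6 against 35.6 CPM in S8 (log2 fold change 1.12, SE 0.21, adjusted p = 3.55e-05), with a larger difference in S4 than in S8. Kcna2, a low-threshold channel of axons, stood at 212 against 123 CPM in S4 and 252 against 179 CPM in S8 (log2 fold change 0.63, SE 0.12, adjusted p = 3.80e-05). Kcnq3, which carries M-current, Kcnh1 and the leak channel gene Kcnk2 had log2 fold changes of 0.59 (S4 0.84, S8 0.29), 0.67 and 0.66 (S4 0.90, S8 0.41). Of 24 sodium, calcium and HCN channel genes 4 were higher and 1 lower, Scn3b. Among the higher, Scn1a, Cacna2d3 and Cacnb4 had log2 fold changes of 0.60 (S4 0.91, S8 0.20), 0.58 (S4 0.82, S8 0.24) and 0.51. Of 35 receptor genes 3 were higher and 3 lower. Among the higher, the metabotropic receptor gene Grm2 and the subunit gene Gria4 had log2 fold changes of 0.91 and 0.71. The subunit genes Gria1, Gria3 and Gabra5 had -0.47, -0.55 (S4 -0.71, S8 -0.32) and -1.11. Epha4, a receptor for ephrins in axon guidance, stood at 305 against 138 CPM in S4 and 169 against 116 CPM in S8 (log2 fold change 0.90, SE 0.12, adjusted p = 1.59e-10). It was the only called gene of 46 of its list, a smaller share than the 2.9% of all genes tested. Of 19 cadherin genes, Cdh6 was higher and Cdh13, Pcdh8 and Pcdh17 were lower, with log2 fold changes of -0.77, -0.91 and -0.83 (S4 -0.39, S8 -1.5). Nefm, a neurofilament subunit of large axons, had a log2 fold change of 0.42 (adjusted p = 0.0128).

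Rora, which encodes a nuclear receptor of the same family as RORB, stood at 121 against 50.1 CPM in S4 and 98.7 against 53.6 CPM in S8 (log2 fold change 1.09, SE 0.17, adjusted p = 1.19e-07). In both sections its level in the Rorb/Whrn spots was the higher. Against the Tshz2/Slc17a6 spots described below, Rora was not called (log2 fold change 0.38, adjusted p = 0.574). Those spots had 111 CPM of it in S4 and 55.3 CPM in S8. Rora is known in layer 4 and in the thalamus, and its relative Rorb was part of the choice, so only Rora is a measurement apart from it. Of 26 tested genes of nuclear receptors and the clock it was the only one called higher. Thra, a thyroid hormone receptor, and Nr2f2 and Nr4a2, both orphan receptors, were lower, with log2 fold changes of -0.76, -1.38 and -0.78 (S4 -1.16, S8 -0.38).

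Levels also varied along the score. The summed CPM of the 12 genes named as higher was 875 in ranks 1 to 35, 725 in ranks 36 to 70, 470.3 in ranks 71 to 140 and 278 in all later ranks of S4. In S8 it was 723, 609, 443 and 279. The spots just past the border thus lay between the Rorb/Whrn spots and the rest. The 8 genes named as lower summed to 88.2, 124, 232 and 552 CPM in S4 and to 216, 176, 380.2 and 529 CPM in S8, where the first bin stood above the second. The genes were named from the same contrast, so these values are a description.

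**Figure D3:**
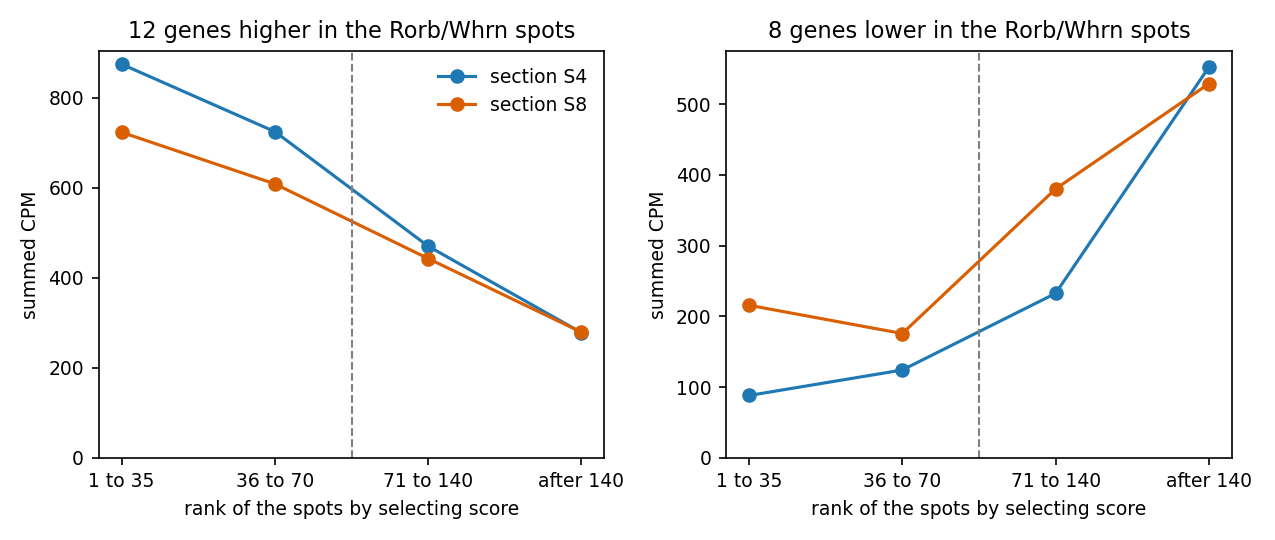
Summed CPM (vertical axis, linear from 0) of the 12 genes named as higher (left) and the 8 named as lower (right) over bins of spots ranked by the selecting score, per section; the dashed line marks the border after rank 70. The higher genes fall from bin to bin in both sections, and the lower genes stand highest after rank 140.

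For 3 further comparisons, 70 spots per section were chosen by other gene pairs after the Rorb/Whrn spots were set aside: Cux2 and Lamp5 of superficial neocortex, then Foxp2 and Gadd45a of layer 6, then Tshz2 and Slc17a6 of retrosplenial neurons. Without setting any aside, 3 and 7 of the top 70 Cux2/Lamp5 spots of S4 and S8 were also Rorb/Whrn spots, 1 and 4 of the Foxp2/Gadd45a spots, and 4 and 10 of the Tshz2/Slc17a6 spots, where the Rorb/Whrn spots made up 6.88% and 7.40% of all ranked spots. The comparisons share the sums of the Rorb/Whrn spots, so their values are set side by side without a test between them. A spot high in the genes of an earlier pair could not enter a later set, so Cux2 and Lamp5 were low by choice in the last 2 sets and enter the text there only within counts.

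Against the Cux2/Lamp5 spots, the Rorb/Whrn spots had more of Dkkl1, of Plcxd2 and of 5 oligodendrocyte genes and less of 4 genes of layers 2 and 3, with 72 of 8762 genes called (0.822%), 30 higher (0.342%) and 42 lower (0.479%). With the level in the Cux2/Lamp5 spots given after that in the Rorb/Whrn spots, Dkkl1 stood at 75.9 against 12.9 CPM in S4 and 59.2 against 12.7 CPM in S8 (log2 fold change 2.41, SE 0.35, adjusted p = 3.16e-05). Plcxd2 stood at 139.97 against 37.2 CPM in S4 and 123 against 48.8 CPM in S8 (log2 fold change 1.64, SE 0.24, adjusted p = 2.39e-05), and it was the only called gene of the 9 layer 4 genes tested. Cux2 helped choose the Cux2/Lamp5 spots. The 15 other genes of the layer 4 list summed to 838 and 586 CPM in the Rorb/Whrn spots of S4 and S8. In the Cux2/Lamp5 spots they summed to 555 and 522 CPM. Plcxd2 is part of these sums, and in S8 its difference alone was larger than that of the sums. The other named genes on the higher side were Cartpt, the precursor of the peptide CART, Htr2a, a serotonin receptor gene, and Slc35f1, with log2 fold changes of 2.24, 1.87 and 1.60. Of 9 tested genes of layers 2 and 3, 4 were lower, Rasgrf2, Calb1, Wfs1 and Ccn3, and 1 was higher, Dkkl1. Lamp5, which helped choose the Cux2/Lamp5 spots, belongs to the same list. Rasgrf2, an exchange factor for Ras, stood at 113 against 285 CPM in S4 and 109.7 against 202 CPM in S8 (log2 fold change -1.15, SE 0.16, adjusted p = 2.39e-05). Calb1, the calcium buffer calbindin, stood at 169 against 341 CPM in S4 and 136 against 233 CPM in S8 (log2 fold change -0.93, SE 0.15, adjusted p = 0.000164). Penk, the enkephalin precursor, had a log2 fold change of -2.05, Rgs14 of -1.97, Myh7 of -2.15 (S4 -3.15, S8 -1.33), Ankrd63 of -2.25 (S4 -3.08, S8 -1.23) and Plk5 of -1.94. Of the 12 genes named as higher against all other spots, only Dkkl1, Plcxd2 and Nrep (log2 fold change 0.98, adjusted p = 0.00112) were called here. Rspo1 was not called, at 40.5 against 11.3 CPM in S4 and 26.3 against 25.5 CPM in S8 (log2 fold change 0.97, adjusted p = 0.464). Cpne9 had a log2 fold change of 0.19 (adjusted p = 0.898).

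Of the 12 oligodendrocyte genes, 5 were higher against the Cux2/Lamp5 spots, with a median log2 fold change of 0.64. The list summed to 2661 and 2994 CPM in the Rorb/Whrn spots of S4 and S8 and to 1542 and 2006 CPM in the Cux2/Lamp5 spots, with no gene at 0, and its part in the other results of this comparison was not tested. Mbp, myelin basic protein, stood at 1096 against 621 CPM in S4 and 1073 against 845 CPM in S8 (log2 fold change 0.58, SE 0.10, adjusted p = 0.000804). Cck was lower, at 955 against 1553 CPM in S4 and 789.7 against 1286 CPM in S8. None of 14 immediate early genes was called by edgeR in this comparison, 3 had an unadjusted p under 0.05, and DESeq2 called 0. Egr1 had a log2 fold change of 0.41 (adjusted p = 0.0595). With only the 4 sums of the pair in the fit 141 genes were called, and DESeq2 called 30 of the 72.

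Single genes of other lists also differed from the Cux2/Lamp5 spots. Rora stood at 121 against 45.3 CPM in S4 and 98.7 against 61.6 CPM in S8 (log2 fold change 1.08, SE 0.27, adjusted p = 0.0409). The potassium channel genes Kcnk2 and Kcnq3 were higher, with log2 fold changes of 1.19 and 0.79. Scn3b stood at 32.0 against 97.1 CPM in S4 and 32.9 against 61.6 CPM in S8 (log2 fold change -1.33, SE 0.28, adjusted p = 0.00726), and the AMPA receptor subunit gene Gria3 had a log2 fold change of -0.86 (S4 -1.08, S8 -0.54, adjusted p = 0.000689). Of the lists of layer 5, layers 6 and 6b, retrosplenial cortex and pan-neuronal genes, edgeR and DESeq2 called none, while 6, 0, 0 and 2 of their genes had an unadjusted p under 0.05.

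Against the Foxp2/Gadd45a spots, the Rorb/Whrn spots were higher in upper-layer genes and lower in layer 6 and myelin genes, with 400 of 8762 genes called (4.57%), 206 higher (2.35%) and 194 lower (2.21%). Of the layer 4 list 9 of 10 tested genes were higher, or 8 of 9 without Cux2, with a median log2 fold change of 1.85. Plcxd2 stood at 139.97 against 21.3 CPM in S4 and 123 against 20.6 CPM in S8 (log2 fold change 2.64, SE 0.28, adjusted p = 4.41e-09). Rspo1 stood at 40.5 against 4.91 CPM in S4 and 26.3 against 4.12 CPM in S8 (log2 fold change 2.88, SE 0.62, adjusted p = 0.00256). Thsd7a, a thrombospondin-domain protein gene, stood at 57.3 against 4.91 CPM in S4 and 32.9 against 14.4 CPM in S8 (log2 fold change 2.34, SE 0.47, adjusted p = 0.000987). Coch, which encodes the matrix protein cochlin, had the largest fold change among the genes named as higher, at 80.9 against 8.18 CPM in S4 and 41.7 against 8.25 CPM in S8 (log2 fold change 2.93, SE 0.44, adjusted p = 1.21e-05). Slitrk2, a synaptic adhesion gene, Prr16 and Igfn1 had log2 fold changes of 2.70, 2.89 and 2.67 (S4 3.59, S8 1.75).

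All 7 tested genes of the layer 6 and 6b list were lower against the Foxp2/Gadd45a spots, with a median log2 fold change of -2.44. Foxp2 and Gadd45a, which chose the set, mark the same layer. Cplx3, a complexin of layer 6b, stood at 11.8 against 81.8 CPM in S4 and 15.4 against 90.7 CPM in S8 (log2 fold change -2.68, SE 0.35, adjusted p = 5.80e-07). Tle4, a corepressor of layer 6 neurons, stood at 42.2 against 164 CPM in S4 and 28.5 against 105 CPM in S8 (log2 fold change -1.93, SE 0.27, adjusted p = 2.11e-06). Syt6, a synaptotagmin, and Ccn2 had log2 fold changes of -3.45 and -3.01, and the growth factor gene Bmp3 and the spectrin gene Sptbn5, outside that list, -3.61 and -2.92. Bmp3 had no count in the Rorb/Whrn spots of S8. Of 12 oligodendrocyte genes 10 were lower, and the list summed to 4819.6 and 6716 CPM in S4 and S8. The part of myelin genes in the other differences was not tested. Mbp stood at 1096 against 1941 CPM in S4 and 1073 against 2354 CPM in S8 (log2 fold change -0.98, SE 0.10, adjusted p = 1.05e-09). Astrocyte genes were higher in 5 of 12 cases, among them the water channel gene Aqp4, at 60.7 against 24.5 CPM in S4 and 81.2 against 20.6 CPM in S8 (log2 fold change 1.60, SE 0.32, adjusted p = 0.000988). Semaphorin 3E (Sema3e), a guidance ligand of deep-layer neurons, was lower, at 13.5 against 67.1 CPM in S4 and 11 against 47.4 CPM in S8, and its receptor gene Plxnd1 higher, at 75.9 against 9.82 CPM in S4 and 61.4 against 33.0 CPM in S8. Of the 400 genes, DESeq2 called 140, and 89 were called without section as a block.

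Receptor and interneuron genes were also called against the Foxp2/Gadd45a spots. Grm2, a presynaptic metabotropic glutamate receptor gene, stood at 57.3 against 1.64 CPM in S4 and 57.0 against 24.7 CPM in S8 (log2 fold change 2.26, SE 0.43, adjusted p = 0.000565). Grm7 was higher too, with a log2 fold change of 2.23, and the kainate receptor genes Grik3, Grik4 and Grik5 were lower, with -1.61, -2.12 (S4 -2.95, S8 -1.36) and -0.62. Of 14 genes of inhibitory neurons 4 were higher, among them Slc32a1, Pvalb and Vip, with log2 fold changes of 1.03 (S4 1.37, S8 0.67), 0.85 and 1.32 (S4 2.09, S8 0.67). Slc17a7 was lower, with a log2 fold change of -0.37 (adjusted p = 0.0195). Rora stood at 121 against 18 CPM in S4 and 98.7 against 45.4 CPM in S8 (log2 fold change 1.87, SE 0.31, adjusted p = 6.50e-05). Cacna2d3, a calcium channel subunit gene, Kcnb2 and Ddit4l were higher by 1.80, 2.19 and 2.53 on the log2 scale, and the ephrin receptor gene Ephb1 had a log2 fold change of -1.35. Of 14 immediate early genes Egr1 was called, with 0.40 (S4 0.58, S8 0.24, adjusted p = 0.0260).

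Against the Tshz2/Slc17a6 spots, 246 of 8762 genes were called (2.81%), 143 higher (1.63%) and 103 lower (1.18%), and the higher ones included 13 of 14 immediate early genes. The median log2 fold change of that list was 1.17. Its genes summed to 2214 and 3334 CPM in the Rorb/Whrn spots of S4 and S8 and to 876 and 1586 CPM in the Tshz2/Slc17a6 spots. In the Cux2/Lamp5 spots the sums were 1916 and 3108 CPM, and in the Foxp2/Gadd45a spots 1983 and 2865 CPM, both nearer to the Rorb/Whrn spots. Egr1 stood at 616 against 173 CPM in S4 and 728 against 328 CPM in S8 (log2 fold change 1.43, SE 0.13, adjusted p = 1.66e-10). Arc stood at 245 against 83.4 CPM in S4 and 509 against 221 CPM in S8 (log2 fold change 1.30, SE 0.15, adjusted p = 1.81e-07). Nr4a1 stood at 285 against 97.3 CPM in S4 and 511 against 244 CPM in S8 (log2 fold change 1.21, SE 0.14, adjusted p = 2.93e-07). Egr2 and Fosb, both transcription factor genes, had larger and less certain log2 fold changes of 3.31 (SE 0.58) and 2.16 (S4 0.99, S8 3.34, SE 0.54), and Egr2 had no count in the Tshz2/Slc17a6 spots of S4. Fosl2 alone was not called, at -0.48. DESeq2 called 8 of the 13: Fos, Arc, Egr1, Egr4, Nr4a1, Junb, Dusp1 and Btg2.

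The layer 4 genes were mostly not called against the Tshz2/Slc17a6 spots: of 10 tested, 2 were higher, Unc5d and Cux2, the latter low by choice in those spots. Plcxd2 stood at 139.97 against 79.4 CPM in S4 and 123 against 121 CPM in S8 and was not called (log2 fold change 0.39, adjusted p = 0.415). Nrep was lower than in the Tshz2/Slc17a6 spots, with a log2 fold change of -0.58 (adjusted p = 0.0248), although it was higher than in all other spots. Of the 12 genes named as higher against all other spots, only Prr16, Cdh6 and Cpne9 were called higher against the Tshz2/Slc17a6 spots. Rspo1 was not called there (log2 fold change 1.62, adjusted p = 0.0917), nor was Dkkl1 (0.55, adjusted p = 0.376). Unc5d stood at 70.8 against 21.8 CPM in S4 and 52.6 against 26.6 CPM in S8 (log2 fold change 1.35, SE 0.33, adjusted p = 0.0137), and Cdh6 at 45.5 against 13.9 CPM in S4 and 50.5 against 14.3 CPM in S8 (log2 fold change 1.72, SE 0.40, adjusted p = 0.0105). Layer 5 genes were lower in 4 of 12 cases, Fezf2, Etv1, Parm1 and Htr2c. Parm1, a mucin-like membrane protein gene, stood at 59.0 against 115 CPM in S4 and 65.8 against 162 CPM in S8 (log2 fold change -1.18, SE 0.22, adjusted p = 0.000927). C1ql2, a synaptic organiser of the retrosplenial list, was lower, at 5.06 against 31.8 CPM in S4 and 6.58 against 36.9 CPM in S8 (log2 fold change -2.57, SE 0.60, adjusted p = 0.0106), and Cort had a log2 fold change of -2.40. Of 11 nuclear-encoded cytochrome c oxidase subunit genes 5 were lower, with log2 fold changes from -0.46 (Cox7b) to -0.38 (S4 -0.21, S8 -0.50, Cox6c). With only the 4 sums of the pair in the fit 109 of the genes were called, and 1 gene, Nptxr, without section as a block.

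Prr16 and Egr2, with the largest fold changes against the Tshz2/Slc17a6 spots, rested on few counts there. Prr16 stood at 23.6 against 1.99 CPM in S4 and 32.9 against 0 CPM in S8, with no count in the Tshz2/Slc17a6 spots of S8. Igfn1 had a log2 fold change of 2.21 (SE 0.63). On the lower side were Zfpm2, a cofactor of GATA factors, Trmt9b and the heparan sulfate enzyme gene Ndst3, with -1.98, -1.93 (S4 -2.40, S8 -1.24) and -1.81 (S4 -1.10, S8 -2.48). Better counted neuronal genes were higher: Nrgn, a calmodulin-binding postsynaptic protein gene, stood at 2562 against 1557 CPM in S4 and 3079.8 against 1924 CPM in S8 (log2 fold change 0.67, SE 0.08, adjusted p = 1.26e-06). Slc17a7, Camk2a and Rbfox3 had log2 fold changes of 0.38, 0.49 and 0.77 (S4 0.43, S8 1.11), so 4 of 12 pan-neuronal genes were higher and none lower. Malat1, a nuclear RNA, was higher by 0.67 (S4 0.41, S8 1.13) and Gm26917 by 1.12 (S4 0.62, S8 1.46) on the log2 scale. Of 12 oligodendrocyte genes 3 were lower, Mbp and Trf among them, and that list summed to 3101 and 4466 CPM in the Tshz2/Slc17a6 spots of S4 and S8. Their part, and that of the meningeal genes Ptgds and Apod, which had log2 fold changes of -1.07 (S4 -0.54, S8 -1.62) and -1.11 (S4 -0.45, S8 -1.57), was not tested.

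**Figure D4:**
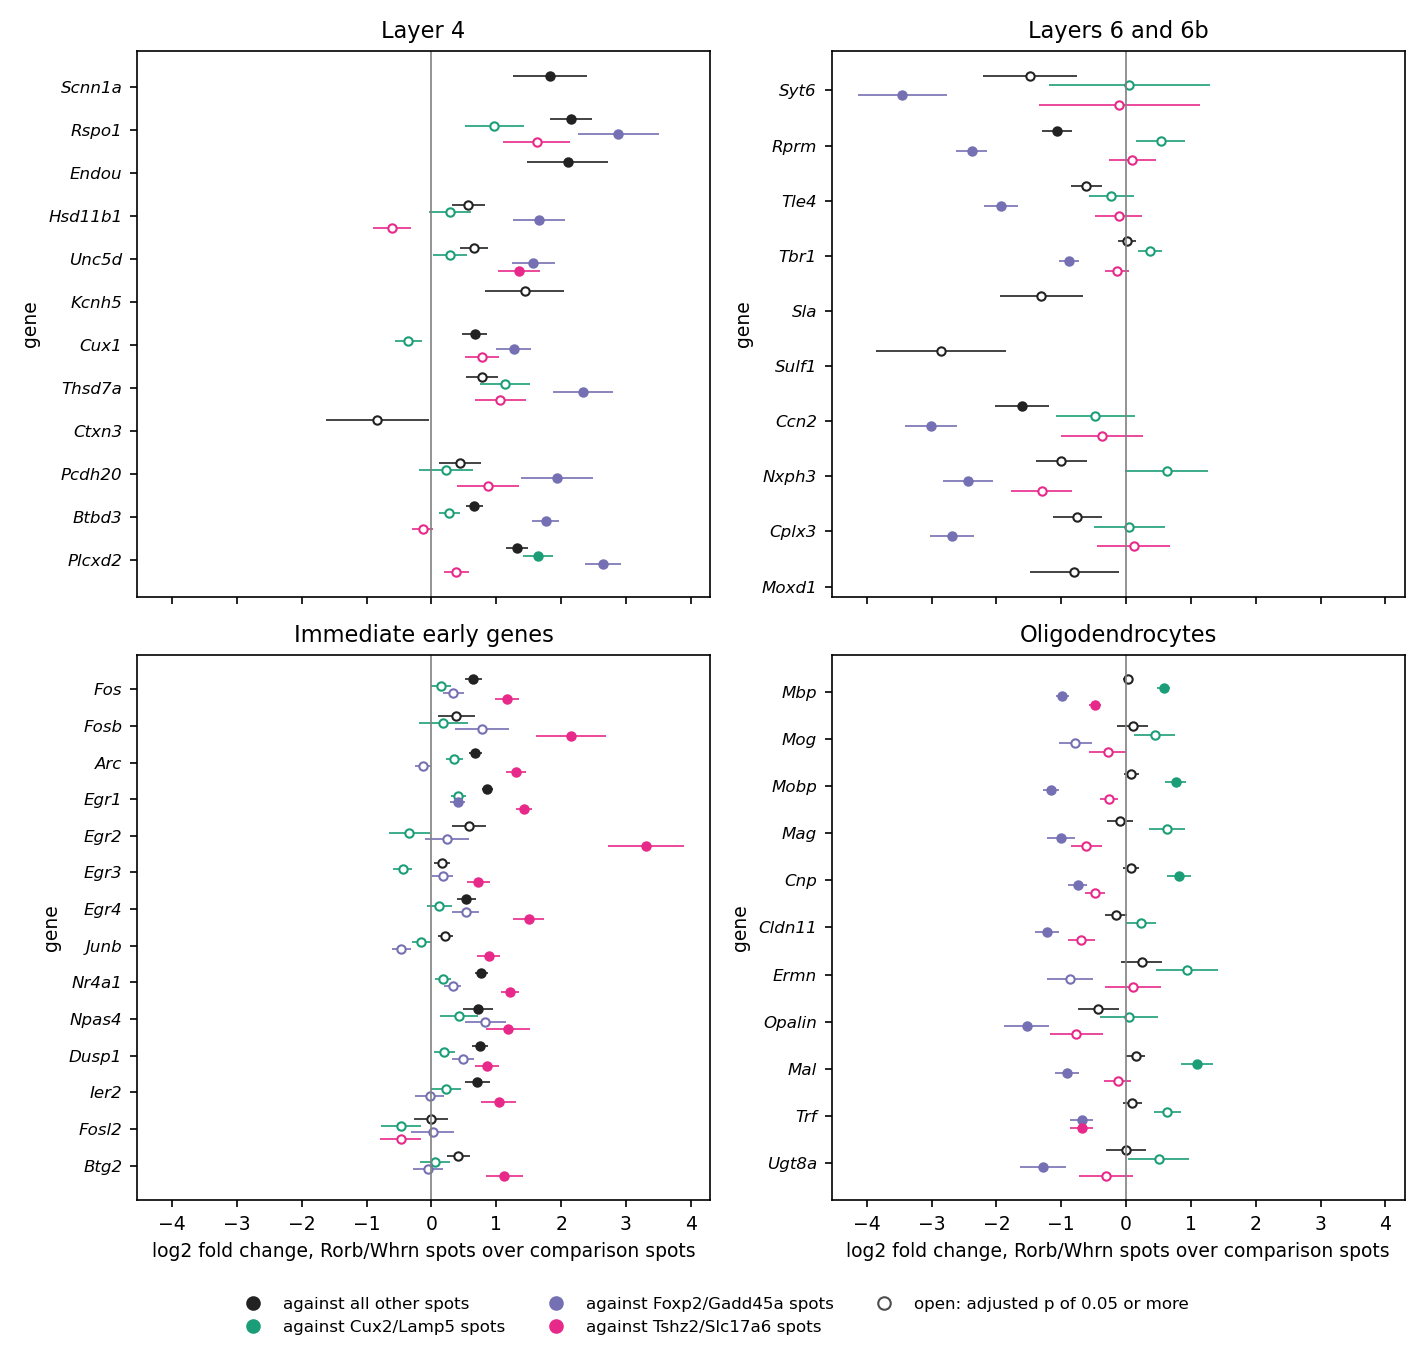
Log2 fold change of the Rorb/Whrn spots over each comparison set (horizontal axis; bars are 1 SE) for tested genes of 4 lists; colours mark the comparison, filled points have an adjusted p under 0.05, and Cux2, Foxp2 and Gadd45a, which chose comparison spots, and a few genes not reported are not drawn. The immediate early genes other than Fosl2 lie farthest right against the Tshz2/Slc17a6 spots, and the myelin genes lie on opposite sides against the Cux2/Lamp5 and the Foxp2/Gadd45a spots.

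The dissociated neurons of the retrosplenial cortex were summed per animal, 152, 304 and 309 cells, and are given as means ± SD over the 3 animals. Rorb stood at 2.75 ± 1.86 CPM in them and Cdh6 at 1.37 ± 0.610 CPM. Whrn stood at 9.96 ± 0.883 CPM, Pamr1 at 23.5 ± 12.2 CPM and Zmat4 at 71.1 ± 15.3 CPM. Of the genes higher in the Rorb/Whrn spots, Plcxd2 stood at 128 ± 13.3 CPM in these neurons, Dkkl1 at 127 ± 11.4 CPM and Nrep, listed under an older symbol, at 390.5 ± 75.4 CPM. Rspo1 stood at 27.4 ± 5.5 CPM and Rora at 219 ± 22.0 CPM. Of the genes lower in the Rorb/Whrn spots, Scn3b stood at 304 ± 47.9 CPM and Nnat stood at 15.2 ± 6.74 CPM. The neurons and the spots were made by different protocols and counted apart, so no fold is given between them.

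Since RORB and RORA bind DNA at sites that hold the letters TAGGTCA, the promoters of the called genes were searched for them on both strands, from 250 bases before to 50 bases after each start of transcription (RefSeq, build GRCm38.p6). A promoter was found by symbol for 139 of the 192 genes called higher, and 4 of these (2.88%) held the letters, near the 2.11% of all tested genes with a promoter (203 of 9622) and the 2.61% of all promoters of the table (856 of 32851). None of the 114 genes called lower with a promoter held them, which says only that these letters are not in those windows. Neither Rspo1, Plcxd2 nor Nrep was among the 4, which were chosen after the values were seen because they hold the match. They are shown with 20 bases on each side where the window allows, on the strand of the gene, with the match in capitals, read either as TAGGTCA or as its reverse complement.
R3hdm1, chr1:128103231-128103277, plus strand: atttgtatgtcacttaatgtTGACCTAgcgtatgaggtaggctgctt
Scn1a, chr2:66440798-66440844, minus strand: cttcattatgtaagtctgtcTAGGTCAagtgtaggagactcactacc
Glul, chr1:153899851-153899897, plus strand: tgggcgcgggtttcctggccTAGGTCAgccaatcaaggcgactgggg
Akr1c18, chr13:4150597-4150640, minus strand: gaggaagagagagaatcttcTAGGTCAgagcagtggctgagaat
A match is a description of letters and not a binding site. R3hdm1 stood at 427 against 243 CPM in S4 and 338 against 219.9 CPM in S8 (log2 fold change 0.71, SE 0.10, adjusted p = 9.98e-10). The glutamine synthetase gene Glul stood at 747 against 594 CPM in S4 and 996 against 749 CPM in S8, and the sodium channel gene Scn1a had a log2 fold change of 0.60. Akr1c18, a hydroxysteroid dehydrogenase gene, had one of 2.15 (adjusted p = 0.0412) and rested on few counts. It stood at 10.1 against 1.66 CPM in S4 and 6.58 against 2.19 CPM in S8.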

How the data were processed

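The deposited values of both tables were whole-number counts per gene and spot or cell, not normalized by the authors, as read from the values. The submitters' processing notes name Space Ranger, Seurat, mm10 and NCBIM37, without a role or order, so the aligner and the filters on spots are not given in the sources used here, nor is strand. The spot totals equalled the totals the authors deposited. Spot coordinates were not used here.

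Counts were summed per section and set. The 2 sets of all spots (4 sums) were compared by the quasi-likelihood test of edgeR 4.0.16 (R 4.3.3), with filterByExpr, TMM scaling and section as a block. The 3 comparison sets entered 1 joint fit of 10 sums with the remaining spots. The residual degrees of freedom were 1 and 4. An adjusted p is Benjamini-Hochberg over all genes tested, and the selecting genes of either set were left out of calls. Against all other spots, up to 12 higher and 8 lower called genes were named, those with the largest fold change, the same direction in both sections and at least 20 CPM in the higher set of both. Against the other sets 5 in each direction were named, with the called genes of 25 lists and uncalled genes of some. Ribosomal, mitochondrial and provisional gene names were skipped. The spots, members of the lists and comparison sets were chosen with earlier results of these data known, and no count of a list was tested. Alternatives were DESeq2 1.42.0, other filters, 50 or 100 spots, a minimum total of 4000, other scores and comparison spots, and each section left out. Genes with near-identical copies, overlapping genes and antisense partners can share counts. Promoter sequences are RefSeq's, from a table of build GRCm38.p6, matched by symbol. A few genes of the lists are not reported here by name.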

Additional observations from a re-analysis of the deposited data

How the results depend on the processing

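The number of calls depended on the test. Against all other spots, where 353 genes were called, DESeq2 called 36, DESeq2 without its filter on mean counts (chosen after seeing the data) 23, edgeR with a minimum total of 4000 per spot 227, and the rule with a log2 fold change of at least 1 kept 106. Against the Cux2/Lamp5 spots, where 72 were called, the numbers were 30, 29, 118 and 38, with 110 for 100 spots per section and 141 with only the 4 sums of the pair. Against the Foxp2/Gadd45a spots, where 400 were called, DESeq2 called 140 with and 140 without its filter, and the fold rule kept 207. Against the Tshz2/Slc17a6 spots, where 246 were called, DESeq2 called 90 and 58, only the 4 sums gave 109, and the fold rule kept 91. The fold rule calls fewer genes by construction, and the cause of the other shifts was not tested.

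The main fits had section as a replicate block. With no replicate block, 4, 5, 89 and 1 genes were called in the 4 comparisons, in the order given. The sections share no further pairing, and within a section the sets come from 1 library. All other settings stayed within 1.5 times of the main counts.

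Leaving out a section leaves no residual degrees of freedom and so no test. Of the called genes, 351 to 353 of 353, 72 of 72, 399 to 400 of 400 and 246 of 246 kept their direction in the section that remained. Hba-a1 and Hbb-bs reversed without section S8, to log2 fold changes of 0.28 and 0.26, and stood at -1.50 and -1.32 without section S4. Of the 502 log2 values that remained for the 251 genes and comparisons described, 250 had moved by more than 1 SE of the value from both sections, 250 by less, and 2 reversed, so single-gene sizes depend on the section. Under the settings with both sections, 1803 of 2511 values stayed on their side of the threshold and 708 kept their direction without passing it, of which 214 came without the block, 165 with DESeq2 without its filter and 91 with DESeq2. Against all other spots, Tmem268, Dcn and Cort were not called with 50 spots, Ovol2 and Kif13a with 100 spots, Prr16, Kif13a, Ccn2 and Cort with a minimum of 4000, and Kif13a with scaled selecting genes.

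With 70 spots per section, a gene at 20 CPM rests on few counts, and 2 sections limit every p-value. Counts say nothing of where in the section the spots lay.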
